A study of Homo sapiens with 4 samples.

Results

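The data describe 8 genes for accessory subunits of Polycomb repressive complex 2 (PRC2), chosen by symbol: JARID2 and AEBP2, which define the PRC2.2 form of the complex, and MTF2, PHF1, PHF19, EPOP, LCOR and LCORL, which belong to the PRC2.1 form. These 8 genes, with 67 transcripts, were read out of 58174 genes and 199324 transcripts. RNA-seq libraries came from Daoy, an established human medulloblastoma cell line, with 2 libraries of the wild type genotype and 2 of the EED-knockout genotype. The labels name no treatment. They also leave unsaid what the lesion in EED is and whether a genotype is represented by separate cultures or by 1 clone, so every p-value reflects the spread between these libraries alone, which may be technical. In bulk RNA, fewer cells of a kind and less RNA per cell cannot be told apart.

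PRC2 places the silencing mark H3K27me3 on chromatin through its catalytic subunit EZH2 or EZH1, which works together with EED and SUZ12. Accessory subunits bind SUZ12 and decide where the complex goes and how active it is. A core joined to a Polycomb-like protein (PHF1, MTF2 or PHF19, which bind CpG-rich DNA) forms PRC2.1, to which EPOP, or a PALI protein encoded by LCOR or LCORL, can be added, while a core joined to JARID2 and AEBP2 forms PRC2.2. JARID2 is also tied to EED directly, because PRC2 methylates JARID2 and EED binds the methylated residue.

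Libraries held 17836112 to 19106382 estimated counts. EED, the targeted gene, had 626 and 500 counts in wild type 1 and 2, against 340 and 490 in knockout 1 and 2. The log2 fold change was -0.49 ± 0.27 (SE; adjusted p = 0.878 by the quasi-likelihood test of edgeR). Knockout 2 was thus close to wild type 2, and with the lesion unknown the RNA level does not check the label. Of 10 genes listed for medulloblastoma and the granule neuron lineage, 7 to 8 were above 1 TPM (a level per transcript length, scaled to the same total in every library) in each library, while ATOH1, which marks granule neuron progenitors, was at 0 in all 4. Blood markers summed to 0.558 to 1.97 TPM over 5 genes, none of them above 1 TPM, and CD3E was at 0 in all 4 libraries. Endothelial markers summed to 0.731 and 2.73 TPM in the wild type pair, against 4.02 and 0.354 TPM in the knockout pair, and their part in the results below was not tested.

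Sequences are shown for PHF19, whose counts from its inner and outer start sites are compared below, and for JARID2, the subunit with the largest difference between genotypes. Each is the RefSeq window (GRCh38.p14) from 250 bases before to 50 bases after a start site, 5′ to 3′ on the gene's strand, with every CG dinucleotide in capitals, since Polycomb-like proteins bind CpG-rich DNA. The PHF19 windows lie at chr9:120877139-120877438 (outer start) and chr9:120868862-120869161 (inner start), both on the minus strand, with start sites 8277 bases apart. The JARID2 windows lie at chr6:15245819-15246118 (first start) and chr6:15248605-15248904 (second start), both on the plus strand, with start sites 2786 bases apart.
PHF19 outer start: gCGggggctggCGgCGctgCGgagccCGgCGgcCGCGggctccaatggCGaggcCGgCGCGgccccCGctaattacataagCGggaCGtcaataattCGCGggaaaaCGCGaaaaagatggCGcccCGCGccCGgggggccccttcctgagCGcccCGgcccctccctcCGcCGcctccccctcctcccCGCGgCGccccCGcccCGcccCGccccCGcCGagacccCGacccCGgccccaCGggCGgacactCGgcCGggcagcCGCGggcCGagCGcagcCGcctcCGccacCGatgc
PHF19 inner start: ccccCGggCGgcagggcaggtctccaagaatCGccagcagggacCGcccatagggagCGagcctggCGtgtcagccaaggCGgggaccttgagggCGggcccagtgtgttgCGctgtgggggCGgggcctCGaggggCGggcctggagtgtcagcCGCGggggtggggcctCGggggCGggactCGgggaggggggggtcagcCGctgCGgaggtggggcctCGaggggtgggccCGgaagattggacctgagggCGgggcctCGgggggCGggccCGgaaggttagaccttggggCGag
JARID2 first start: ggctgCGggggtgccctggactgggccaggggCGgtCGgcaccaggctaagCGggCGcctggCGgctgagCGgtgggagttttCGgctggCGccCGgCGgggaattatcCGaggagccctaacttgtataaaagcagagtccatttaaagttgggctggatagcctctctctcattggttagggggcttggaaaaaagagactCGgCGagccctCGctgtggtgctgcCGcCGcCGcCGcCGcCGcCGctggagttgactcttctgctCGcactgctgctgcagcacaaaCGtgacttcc
JARID2 second start: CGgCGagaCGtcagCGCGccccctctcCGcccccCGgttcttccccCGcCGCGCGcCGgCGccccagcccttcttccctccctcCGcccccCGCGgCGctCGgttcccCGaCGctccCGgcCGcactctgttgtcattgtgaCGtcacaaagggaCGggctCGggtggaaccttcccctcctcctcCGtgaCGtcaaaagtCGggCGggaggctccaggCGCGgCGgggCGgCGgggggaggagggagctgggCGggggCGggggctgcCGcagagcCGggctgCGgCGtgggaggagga
The outer PHF19 window held 48 CG dinucleotides and the inner window 26, and the JARID2 windows held 24 and 40. RefSeq windows were found for 7 of the 8 genes (11 windows, 19 to 51 CG each). Across all 35116 RefSeq windows of 300 bases the median was 14, and all but 3.96% held at least 1. CG reads the same on either strand, and these counts describe base composition only.

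The accessory subunits spanned a wide range of levels, and PHF19 was the most abundant in every library. PHF19, a Polycomb-like protein (chromosome 9, 120855652 to 120894896, GRCh38), stood at 107 and 104 TPM in the wild type pair, against 109 and 139 TPM in the knockout pair. MTF2, the second Polycomb-like protein (chromosome 1, 93079235 to 93139081), came next at 53.0 and 56.0 TPM in the wild type pair, against 54.5 and 58.0 TPM in the knockout pair. PHF1, the third (chromosome 6, 33410399 to 33416453), had 17.5 and 23.6 TPM in the wild type pair, against 26.1 and 22.2 TPM in the knockout pair. The ranges of PHF19, MTF2 and PHF1 did not overlap in any genotype, so the order of the Polycomb-like genes was the same in all 4 libraries.

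AEBP2, the zinc finger subunit of PRC2.2 (chromosome 12, 19404045 to 19720801), was listed at 16.3 and 16.1 TPM in the wild type pair, against 16.2 and 21.3 TPM in the knockout pair. JARID2, a Jumonji family protein without demethylase activity (chromosome 6, 15246296 to 15522040), was at 17.4 TPM in both wild type libraries and at 9.90 and 12.6 TPM in knockout libraries. In wild type cells PHF1, JARID2 and AEBP2 lay close together, with JARID2 just below the lower PHF1 library, whereas in knockout cells both JARID2 values were below both AEBP2 values. LCORL (chromosome 4, 17841199 to 18021876) was at 6.99 and 10.5 TPM in the wild type pair, against 14.6 and 8.36 TPM in the knockout pair, so in knockout cells its range contained that of JARID2. EPOP, which links PRC2.1 to elongin BC (chromosome 17, 38671703 to 38675421), had 6.71, 6.36, 5.75 and 7.35 TPM in wild type 1, wild type 2, knockout 1 and knockout 2. LCOR (chromosome 10, 96832282 to 96995959) had 5.15, 6.55, 7.95 and 5.95 TPM in the same order, and these lowest genes overlapped each other in both genotypes.

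**Figure D1:**
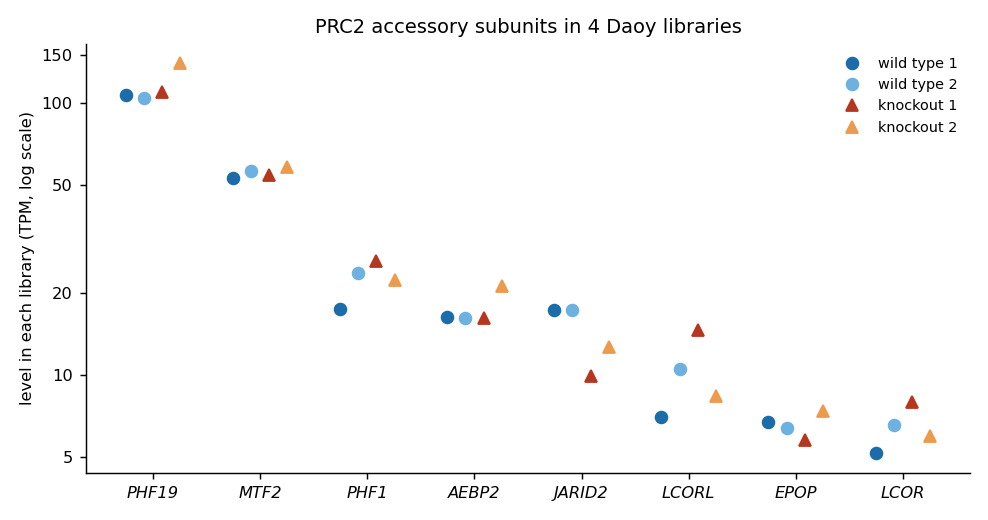
TPM of each accessory subunit gene (log scale) in the 2 wild type (circles) and 2 knockout libraries (triangles), each symbol 1 library, genes ordered by their mean. JARID2 sits at 17.4 TPM in both wild type libraries and at 9.90 and 12.6 TPM in the knockout libraries, with no overlap. In TPM, 36.3% of genes separated the genotypes in either direction.

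JARID2 was lower in EED-knockout cells than in wild type cells in both libraries, by the largest margin of the 8 genes, although the difference did not pass the test over all genes. It had 1386 and 1225 counts in the wild type pair, against 765 and 938 in the knockout pair. In CPM, counts scaled to library size with TMM factors, these were 76.3 and 67.7 in the wild type pair, against 40.3 and 50.1 in the knockout pair. Both knockout values were thus below both wild type values, in CPM as in TPM. In CPM, 18% of all genes tested were likewise lower in both knockout libraries. In TPM, 36.3% of genes separated the genotypes in either direction. The means were 72.0 ± 6.04 and 45.2 ± 6.95 CPM (SD, n = 2 each), a log2 fold change of -0.67 ± 0.21 (SE; 95% interval -1.16 to -0.19). The unadjusted p of edgeR's quasi-likelihood test was 0.0138 and the adjusted p 0.799. An unadjusted p under 0.05 with a lower value in knockout cells was found for 3.05% of the 18349 genes tested; ordered by p, JARID2 came at rank 294. DESeq2 did not call JARID2 either (adjusted p = 0.501).

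JARID2 was also lower in knockout cells relative to the other subunits of the same library. Its TPM relative to AEBP2, its partner in PRC2.2, was 1.07 and 1.08 in the wild type pair, against 0.612 and 0.594 in the knockout pair. Relative to MTF2 the ratio was 0.328 and 0.310 in the wild type pair, against 0.182 and 0.218 in the knockout pair. Both knockout ratios were below both wild type ratios against each of the other 7 members. These ratios all share the JARID2 values, which separate the genotypes by themselves in TPM. How often other genes give such ratios was not counted. JARID2 held 51.6% and 51.8% of the PRC2.2 members' summed TPM in the wild type pair, against 38.0% and 37.3% in the knockout pair. The PRC2.2 members together held 14.6% and 13.9% of the accessory subunits' TPM in the wild type pair, against 10.7% and 12.3% in the knockout pair. The summed TPM of the PRC2.2 members was 33.6 and 33.5 in the wild type pair, against 26.1 and 33.9 in the knockout pair. This sum overlapped between genotypes, and in knockout 2 it was not below wild type. The summed TPM of the PRC2.1 members was 196 and 207 in the wild type pair, against 218 and 241 in the knockout pair. These sums describe the libraries and were not tested.

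Genes near JARID2 were also lower in knockout 1, by less than JARID2 itself, while in knockout 2 they were close to wild type 2. Among the 48 tested genes within 5 Mb of JARID2, 40 had a log2 fold change below 0, and their median was -0.23. Of all genes tested, 9003 of 18349 were below 0, with a median of 0.01. In log2 CPM relative to the wild type mean, that neighbourhood stood at 0.13 in wild type 1 and -0.13 in wild type 2. It stood at -0.37 in knockout 1 and -0.16 in knockout 2, the latter close to wild type 2. JARID2 itself stood at -0.83 in knockout 1 and -0.52 in knockout 2. The difference of JARID2 from its neighbourhood was -0.47 in knockout 1 and -0.36 in knockout 2, and it was -0.05 and 0.05 in wild type 1 and 2. The part of the neighbourhood in the JARID2 difference was not tested. The nearest tested protein-coding genes on each side did not separate the genotypes. CD83, an immune surface protein, had 421 and 249 counts in the wild type pair, against 297 and 383 in the knockout pair (log2 fold change -0.03 ± 0.32, SE). DTNBP1, the dysbindin gene that begins just past the 3′ end of JARID2, had 456, 457, 553 and 441 counts in the order wild type 1, wild type 2, knockout 1 and knockout 2 (log2 fold change 0.06 ± 0.22, SE). The antisense gene JARID2-AS1 had 1 to 2 counts per library.

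By kallisto's estimates, 89.5% to 100% of JARID2 counts in each library came from the first start site. JARID2-001, of 5755 bases, begins near the first start, and JARID2-201, also coding, has 5595 bases. JARID2-001 had 1240 and 1145 estimated counts in the wild type pair, against 765 and 849 in the knockout pair. Its log2 fold change was -0.62 ± 0.18 (SE; edgeR unadjusted p = 0.0222, adjusted p = 0.893 over all transcripts). JARID2-201, from the second start, had 145 and 77.0 counts in wild type, 0 in knockout 1 and 88.1 in knockout 2. The estimate for JARID2-201 thus differed between the knockout libraries, and this transcript, described after its values were seen, did not separate the genotypes. JARID2-001 has 289 bases that no other JARID2 transcript shares, and JARID2-201 has 129. Their counts therefore rest largely on how kallisto divides shared fragments.

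The 3 genes whose pattern over the 4 libraries was most like that of JARID2 all lay on chromosome 5. Likeness was the root mean square difference of log2 CPM centred on the 4-library mean, over 10518 other protein-coding genes with a mean above 3. MCCC2, a subunit of methylcrotonyl-CoA carboxylase, differed by 0.0117 and had 1711 and 1501 counts in the wild type pair, against 929 and 1134 in the knockout pair. MEF2C, a transcription factor of muscle and neurons, differed by 0.0205, and POC5, a centriole protein, by 0.0230. Their adjusted p by edgeR was 0.799, 0.857 and 0.799, so none of the 3 was called. The 3 were picked for this likeness, so their counts and p-values follow from the choice and are no separate result. Genes near them were not compared.

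AEBP2, the other PRC2.2 subunit, differed little and in a direction that depended on the unit. It had 558 and 519 counts in the wild type pair, against 504 and 482 in the knockout pair, a log2 fold change of -0.18 ± 0.20 (SE; edgeR adjusted p = 0.937). Both knockout libraries were below both wild type libraries in CPM, as was the case in the lower direction for 18% of all genes tested. In TPM the genotypes overlapped, and with log2(TPM + 1) in limma the fold change was 0.18, beside a median of 0.07 for all genes. The AEBP2 transcripts differed in direction. AEBP2-003, the main transcript, had 388 and 351 counts in the wild type pair, against 329 and 288 in the knockout pair. AEBP2-004, which starts further in (base 19440581), had 89.7 and 27.4 counts in the wild type pair, against 6.04 and 2.73 in the knockout pair, with a log2 fold change of -3.73 ± 0.92 (SE; edgeR unadjusted p = 0.0125, adjusted p = 0.823). Leaving out wild type 1 gave -2.61 and leaving out wild type 2 gave -4.37, while leaving out knockout 1 or 2 gave -4.28 or -3.35. The short AEBP2-006, from an upstream start (base 19404066), had 3.84 and 30.3 counts in the wild type pair, against 35.9 and 67.3 in the knockout pair. At 0.383, 3.34, 3.89 and 7.53 TPM, this transcript of 975 bases added most where the summed TPM of AEBP2 was highest, in knockout 2. AEBP2-008, which was too low to be tested, had 11.9, 0, 5.44 and 9.06 counts in the order wild type 1, wild type 2, knockout 1 and knockout 2.

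The Polycomb-like genes of PRC2.1 were close between genotypes in their gene totals. PHF19 had 3229 and 2766 counts in the wild type pair, against 3254 and 3515 in the knockout pair, with a log2 fold change of 0.12 ± 0.19 (SE; 95% interval -0.33 to 0.57; edgeR adjusted p = 0.956). In CPM the genotypes overlapped for PHF19, while in TPM both knockout libraries were above both wild type libraries, as was the case in either direction for 36.3% of genes. MTF2 had 1677 and 1301 counts in the wild type pair, against 1499 and 1474 in the knockout pair, a log2 fold change of -0.06 with a 95% interval from -0.54 to 0.42. PHF1 had 439 and 574 counts in the wild type pair, against 565 and 507 in the knockout pair, a log2 fold change of 0.02 with an interval from -0.52 to 0.57. In counts of MTF2 and of PHF1, the wild type values enclosed both knockout values. The sign of each depended on 1 library: without wild type 1 the log2 fold change was 0.13 for MTF2 and -0.16 for PHF1, and without knockout 1 it was -0.04 for PHF1. On log2(TPM + 1), MTF2 was at 0.04, beside a median of 0.07 for all genes in that fit. The main PHF1 transcript, PHF1-002, had 262, 297, 333 and 216 counts in wild type 1, wild type 2, knockout 1 and knockout 2, and PHF1-012, annotated as a target of nonsense-mediated decay, had 87.9, 146, 122 and 124, so both overlapped. PHF1 lies on chromosome 6 as JARID2 does, and the 206 tested genes within 5 Mb of it stood at -0.27 in knockout 1 and 0.02 in knockout 2 on the log2 scale. PHF1 overlaps CUTA on the opposite strand, which had 1664 and 1390 counts in the wild type pair, against 1165 and 1128 in the knockout pair, and without knowledge of strand their reads cannot be told apart where they overlap.

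Although the total of PHF19 was close between genotypes, some of its transcripts were not. PHF19-201, a coding transcript whose first base (120868911) is the inner start printed above, had 609 and 219 estimated counts in the wild type pair, against 0.513 and 0 in the knockout pair. Against a floor of 3 counts per library, it was at least 143-fold higher in wild type cells by their mean, and at least 76.2-fold higher with wild type 1 left out. PHF19-001, the main transcript, which begins near the outer start, had 2104 and 2023 counts in the wild type pair, against 2784 and 2642 in the knockout pair. The sum of both was 2713 and 2242 in the wild type pair, against 2784 and 2642 in the knockout pair, which overlapped, although each transcript by itself separated the genotypes. A separation in either direction was found for 35.8% of genes in CPM, and its share over all transcripts was not counted. edgeR gave PHF19-201 an unadjusted p of 0.000617 and an adjusted p of 0.823 over all 56858 transcripts tested, of which it called 0 (0% of transcripts). DESeq2 called PHF19-201 (adjusted p = 1.58e-06), as it did 0.942% of transcripts with an adjusted p. PHF19-001 differed by a log2 fold change of 0.34 ± 0.16 (SE; edgeR adjusted p = 1.00).

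The inner PHF19 start also has transcripts that were not lower in knockout cells. PHF19-002, a noncoding transcript that begins within 1 kb of it and was picked after its values were seen, had 31.1 and 55.8 counts in the wild type pair, against 90.7 and 102 in the knockout pair. Summed over the 6 transcripts of the inner start, counts were 650 and 284 in the wild type pair, against 108 and 131 in the knockout pair. For the 4 transcripts of the outer start the sums were 2442 and 2306 in the wild type pair, against 2988 and 3096 in the knockout pair. PHF19-202, a coding transcript named after its values were seen, begins further upstream (base 120894896) and is in neither sum. It had 72.5 and 99.7 counts in the wild type pair, against 65.1 and 219 in the knockout pair. In counts neither sum overlapped between genotypes, a separation for which no share over all start sites was counted. In TPM the inner start stood at 16.7 and 11.7 in the wild type pair, against 11.7 and 15.6 in the knockout pair, which overlapped. PHF19-201 has 93 bases and no splice junction of its own, so its count rests largely on how kallisto divides shared fragments. PHF19-003, a short coding transcript of 836 bases from the outer start, had 309 and 249 counts in the wild type pair, against 191 and 434 in the knockout pair. It contributed 35.5 and 30.6 TPM in the wild type pair, against 23.5 and 53.4 TPM in the knockout pair. Without it PHF19 still held 34.9% to 38.8% of the accessory subunits' summed TPM in the 4 libraries.

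MTF2 had a transcript with a similar split. MTF2-202, which codes for protein, had 117 and 37.1 counts in wild type and 0 in both knockout libraries, at least 26.6-fold higher in wild type cells by their mean against 3 counts per library. With wild type 1 left out it was at least 12.9-fold higher. edgeR gave it an unadjusted p of 0.00462 and an adjusted p of 0.823, and DESeq2 called it (adjusted p = 0.000853). MTF2-202 has no base and no splice junction that another MTF2 transcript lacks, so only the combination of its exons sets it apart. MTF2-001, the main transcript, had 1116 and 713 counts in the wild type pair, against 1002 and 963 in the knockout pair, and MTF2-003 had 251, 334, 267 and 264 in the same order of libraries. Both overlapped between genotypes.

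**Figure D2:**
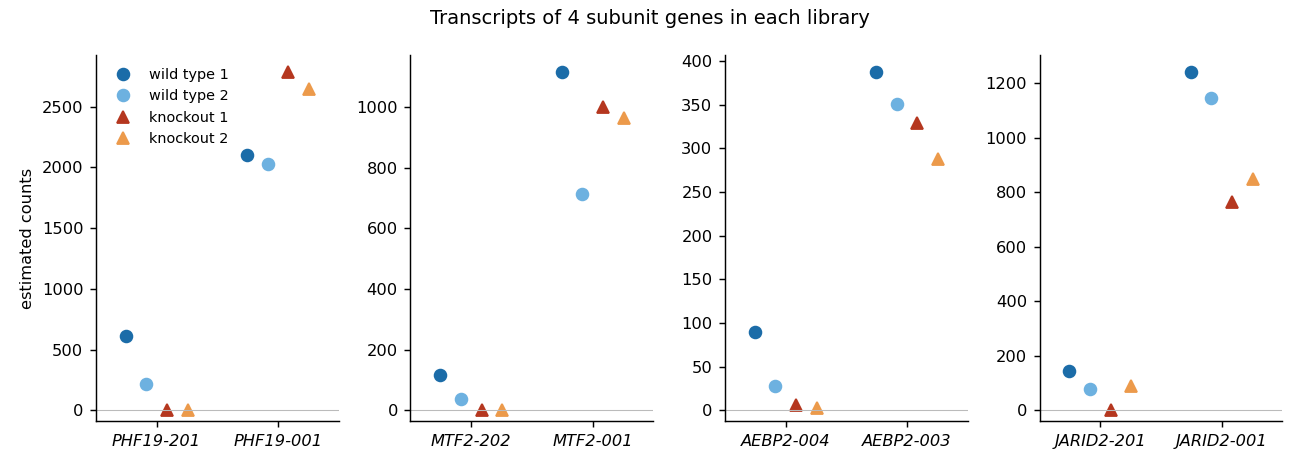
Estimated counts (linear axes, from 0) of 2 transcripts each of PHF19, MTF2, AEBP2 and JARID2 in the 2 wild type (circles) and 2 knockout libraries (triangles), each symbol 1 library. PHF19-201 and MTF2-202 are at or near 0 in both knockout libraries and at 609 and 219 and at 117 and 37.1 in the wild type libraries.

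Of the 67 transcripts of the 8 genes, 41 passed the filter on low counts and 0 passed edgeR's test. At an unadjusted p under 0.05 edgeR found 4 lower in knockout cells (JARID2-001, AEBP2-004, MTF2-202 and PHF19-201) and 0 higher. Of all transcripts tested, 4.64% had such a p, 2.43% with a lower and 2.21% with a higher value. The 4 are 9.76% of the 41, and the median log2 fold change of the 41 was -0.02, beside 0.01 for all transcripts tested. PHF19-201 and MTF2-202 had under 3 counts in both knockout libraries and at least 30 in both wild type libraries, limits that were chosen after their values were seen. The same was found for 117 of all transcripts tested (0.206%), and the mirror image for 123 (0.216%).

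EPOP, LCOR and LCORL, the further PRC2.1 subunits, did not separate the genotypes. EPOP, which has a single transcript, had 375 and 333 counts in the wild type pair, against 312 and 405 in the knockout pair, a log2 fold change of -0.04 with a 95% interval from -0.63 to 0.55. LCOR had 687 and 753 counts in the wild type pair, against 846 and 684 in the knockout pair, a log2 fold change of 0.03 with an interval from -0.46 to 0.52. The sign of both depended on 1 library, since without wild type 1 EPOP was at 0.05 and LCOR at -0.04, and without knockout 1 EPOP was at 0.15 and LCOR at -0.12. Its longest transcript LCOR-014, of 15415 bases, had 299 and 358 counts in the wild type pair, against 278 and 285 in the knockout pair, while LCOR-015 had 234 and 235 in the wild type pair, against 350 and 261 in the knockout pair. Both knockout libraries were below wild type for LCOR-014 and above it for LCOR-015, and edgeR called neither (both adjusted p = 1.00). In CPM, 35.8% of genes separated the genotypes in 1 direction or the other, and the share over all transcripts was not counted. LCOR-201, a single-exon transcript without a base of its own, had 64.5, 90.3, 148 and 92.3 counts in wild type 1, wild type 2, knockout 1 and knockout 2.

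LCORL stood apart in knockout 1 only. It had 341 and 324 counts in wild type, 547 in knockout 1 and 329 in knockout 2, a log2 fold change of 0.34 ± 0.29 (SE; edgeR adjusted p = 0.911), which was -0.06 without knockout 1. The 29 tested genes within 5 Mb of LCORL stood at 0.72 in knockout 1 and -0.18 in knockout 2 on the log2 scale relative to wild type, and LCORL at 0.65 and -0.06. NCAPG, a condensin subunit that overlaps LCORL on the opposite strand, had 2593 and 2359 counts in wild type, 4413 in knockout 1 and 2532 in knockout 2. Without knowledge of strand, reads of NCAPG and LCORL cannot be told apart where their transcripts overlap. LCORL therefore moved with its neighbourhood in knockout 1, whose part in the LCORL value was not tested. Its longest coding transcript, LCORL-007, had 112 and 91.0 counts in the wild type pair, against 200 and 169 in the knockout pair, so both knockout libraries were higher, without passing edgeR's test (adjusted p = 1.00). LCORL-201 had 93.9, 122, 198 and 76.4 counts and LCORL-001 had 93.1, 73.8, 89.9 and 47.4, in the order wild type 1, wild type 2, knockout 1 and knockout 2. LCORL-004, annotated as a target of nonsense-mediated decay, had 18.4, 27.3, 50.3 and 33.5 counts in that order. LCORL-005, too low to be tested, had 4.01 to 10.7 counts in wild type and 3.37 to 8.65 in knockout cells. Of the LCORL transcripts other than LCORL-007, LCORL-004 was higher in both knockout libraries and the others overlapped. Such a separation was found for 35.8% of genes in CPM, in either direction, and was not counted over all transcripts.

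**Figure D3:**
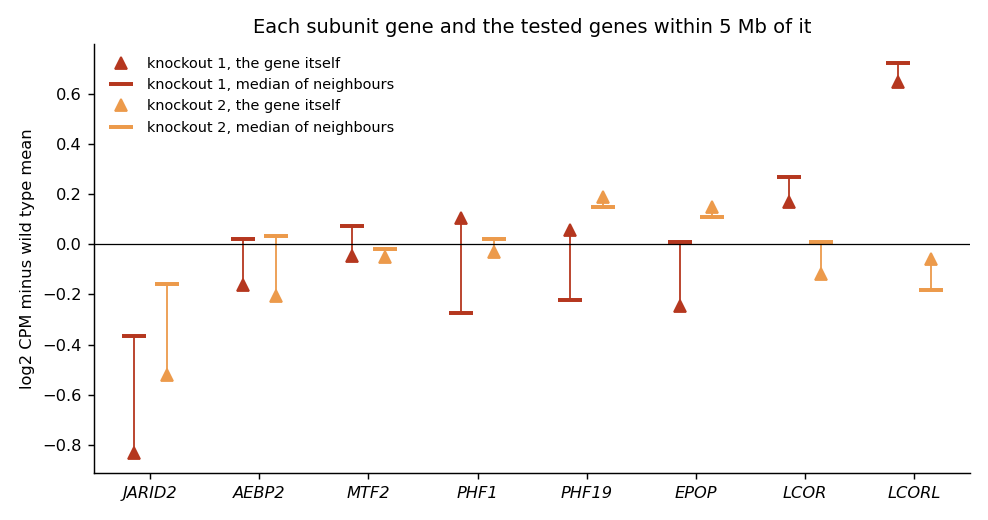
Log2 CPM in each knockout library minus the wild type mean, for each accessory subunit gene (triangles) and for the median of the tested genes within 5 Mb (horizontal marks). LCORL at 0.65 in knockout 1 sits beside its neighbours at 0.72, while JARID2 lies below its neighbours in both knockout libraries.

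Over the 8 accessory subunits, all of which passed the filter on low counts, edgeR called 0, as it called 0% of genes tested. DESeq2 called 0 of the 8, beside 0.4% of genes with an adjusted p. By sign, 4 of the 8 log2 fold changes were below 0 and 4 above, with a median of -0.01 beside 0.01 for all genes tested. In CPM, the knockout libraries lay outside the wild type range for 2 of the 8, the PRC2.2 members, on the lower side. This was so for 0 of the 6 PRC2.1 members, for 18% of all genes on the lower side and for 35.8% on either side. In TPM it was so for 1 PRC2.2 member (JARID2, lower) and 1 PRC2.1 member (PHF19, higher), beside 36.3% of genes on either side. The difference between PRC2.2 and PRC2.1 members thus depended on the unit and was not tested. At an unadjusted p under 0.05 edgeR found 1 of the 8, JARID2, and 5.9% of all genes.

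Of the 7 genes listed for the PRC2 core and its inhibitor, edgeR called 0. Their log2 fold changes had a median of -0.09, and 5 of 7 were below 0. SUZ12, the scaffold that accessory subunits bind, had 2138 and 2143 counts in the wild type pair, against 2465 and 2484 in the knockout pair (log2 fold change 0.15 ± 0.18, SE). CXorf67, the symbol used in the files for the PRC2 inhibitor EZHIP, had 1325 and 1437 counts in the wild type pair, against 1794 and 1649 in the knockout pair (log2 fold change 0.26 ± 0.18, SE). Both were higher in both knockout libraries, while EED and RBBP7 were lower in both. In CPM such a separation, in either direction, was found for 35.8% of all genes. RBBP7, a histone-binding subunit, had 2517 and 2251 counts in the wild type pair, against 2154 and 2064 in the knockout pair (log2 fold change -0.23 ± 0.18, SE). EZH2, EZH1 and RBBP4, a catalytic subunit, its homologue and a histone chaperone, overlapped between genotypes, with log2 fold changes of -0.09, -0.01 and -0.12. On log2(TPM + 1) these were 0.04, 0.30 and 0.01, beside a median of 0.07 for all genes in that fit. JARID2's TPM relative to EED was 0.629 and 0.672 in the wild type pair, against 0.544 and 0.509 in the knockout pair.

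**Figure D4:**
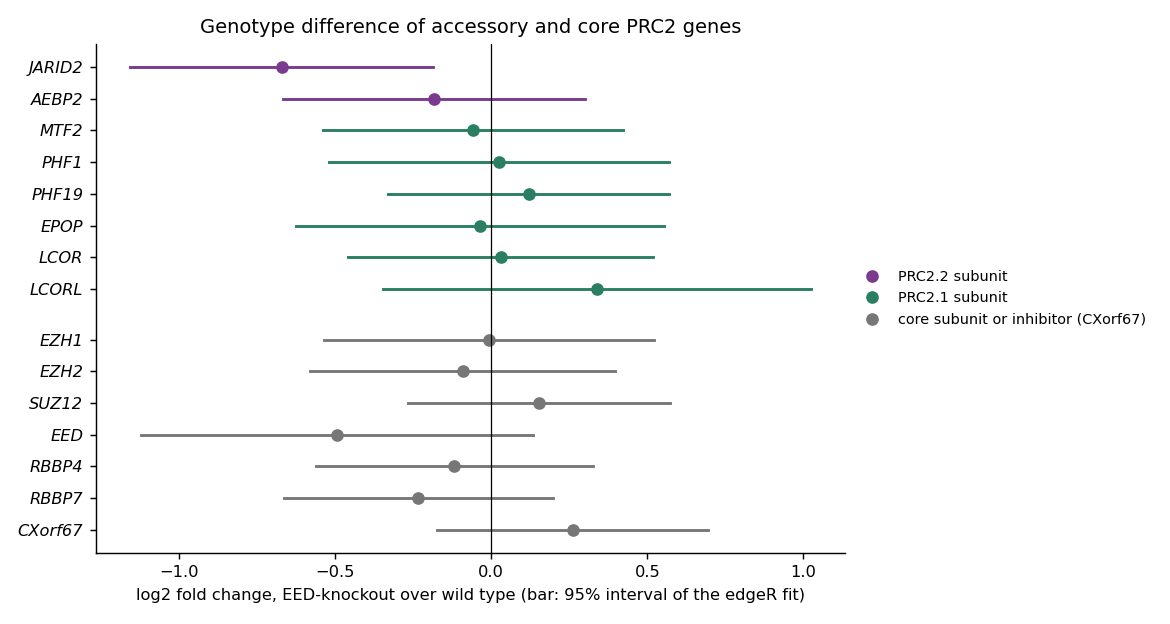
Log2 fold change of knockout over wild type (points) with the 95% interval of the edgeR fit (bars) for the 8 accessory subunits and the 7 genes of the core list. JARID2 at -0.67 (-1.16 to -0.19) is the single gene whose interval does not include 0, before any adjustment over all genes.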

How the data were processed

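RNA was extracted with TRIZOL and RNeasy columns, per the labels' protocols. The deposited estimated counts per transcript were made with kallisto 0.43.1 on build hg38, per the submitters' processing notes, and the deposited TPM values divide them by effective length, per the file headers. The labels and headers name neither the GENCODE release nor the strandedness of the libraries. The deposited transcript lengths and effective lengths served for length scaling only. Kallisto divides shared fragments by a model, so transcript values are less certain than gene sums.

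Gene values were sums of estimated counts, rounded to whole numbers. Genotypes were compared with the quasi-likelihood test of edgeR 4.0.16 (R 4.3.3; TMM; filterByExpr, minimum count 10, minimum total 15; no covariate; two-sided), adjusted by Benjamini-Hochberg over 18349 genes or 56858 transcripts, with a threshold of 0.05. A floor of 3 counts stood for 0.158 to 0.166 CPM and covers counting error only. Positions are from GENCODE 29 (GRCh38, the same build). Alternatives used DESeq2 1.42.0, limma 3.58.1, other size factors, filters and units, a replicate block and leaving out each library. The gene tests of edgeR and DESeq2 were also run on simulated counts, with the outcome not reported here. The transcript tests were not run on simulated counts.

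Members and lists were chosen with earlier results of these data known. Named were the 8 members, the core list, transcripts holding on average at least 10% of a gene's TPM (at most 5 per gene) or with an unadjusted p under 0.05, the 3 protein-coding genes most like JARID2 (mean log2 CPM above 3), and the tested coding genes flanking a member with an unadjusted p under 0.05.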

Additional observations from a re-analysis of the deposited data

How the results depend on the processing

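JARID2 and PHF19 kept their direction under all 14 alternatives, with log2 fold changes from -0.84 to -0.52 for JARID2 and from 0.01 to 0.23 for PHF19, and no accessory subunit passed the threshold under any of them. JARID2's adjusted p ranged from 0.348 to 1.00. AEBP2 was at 0.11 with length-scaled TPM counts, and in limma at 0.18 on log2(TPM + 1), with or without the filter, and 0.19 on log2(TPM + 0.1). In these 3 limma fits MTF2 was at 0.044 (0.045 with 0.1 added), EZH2 at 0.041 (0.042) and RBBP4 at 0.015 (0.015). EZH1 was at 0.21 with length-scaled TPM counts and at 0.30, 0.32 and 0.30 in limma. The median over all genes was 0.066 on log2(TPM + 1), 0.036 without the filter and 0.078 on log2(TPM + 0.1). That median was 0.01 in the main fit. With each library left out in turn, the log2 fold change ranged from -0.24 to 0.13 for MTF2, from -0.16 to 0.23 for PHF1, from -0.26 to 0.15 for EPOP, from -0.12 to 0.16 for LCOR, from -0.059 to 0.64 for LCORL, from -0.11 to 0.10 for EZH1 and from -0.28 to 0.12 for EZH2. DESeq2 gave PHF19-201 -9.76 and MTF2-202 -8.78, both called, while the other alternatives for transcripts did not call them. The median of the genes near AEBP2, 0.03 over 35 genes within 5 Mb, was -0.13 within 2 Mb and 0.01 within 10 Mb. The cause of these changes was not tested.

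edgeR called 0 genes, with 1082 at an unadjusted p under 0.05, whereas DESeq2 called 35 genes higher and 44 lower and 233 transcripts higher and 290 lower. With a library left out, edgeR called 0 to 15 genes higher and 0 to 10 lower. The calls appeared without wild type 2 (9 and 10) and without knockout 1 (15 and 8). Limma-voom called 0 genes, with 1091 at an unadjusted p under 0.05. Deviations of same-numbered libraries from their group means had a weak negative correlation (r = -0.14 across 18349 genes, which are not independent replicates). This value cannot tell whether same-numbered libraries were handled together, which the labels leave unsaid. With the replicate block edgeR called 0 genes (768 at an unadjusted p under 0.05) and JARID2 was at -0.68. With the numbers crossed, added after seeing the data, it called 0 genes (1607 at an unadjusted p under 0.05).

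With 2 libraries per genotype, the standard errors of the members were 0.19 to 0.29 on the log2 scale, and their 95% intervals included 0 for each of the 8 except JARID2.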
